A study of Mus musculus with 2 samples.

Results

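The levels of 10 transcription factors that set or maintain the identity of lung epithelium were measured in newborn mouse lung: Nkx2-1, Gata6, Sox2, Sox9, Etv5, Id2, Cebpa, Klf5, Grhl2 and Elf3. They were chosen by name, with earlier results of these data known, and each symbol was matched to its gene identifier in the deposited gene tables. All 10 were found among the 43346 mouse genes of the tables, of which 21474 are protein-coding. The data are total RNA-seq of whole lung from 2 pups of strain B6NCrl on postnatal day 0, with no treatment, transgene or second condition. Each library came from the 2 lungs of a single pup, labelled pup 1 (replicate 1) and pup 3 (replicate 2), both of pregnancy 1. Both libraries carry the same donor identifier, so n = 2 and each SD assume that the pup numbers stand for separate animals. Sex was not recorded. Both libraries started from 10 ng of mirVana-extracted RNA over 200 nt, with spike-in RNAs and, per the labels, a SMARTer low-input manual. With 1 group there is no comparison of conditions, and no p-values are given.

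Lung epithelium arises from foregut endoderm that switches on Nkx2-1. As the airways branch, Sox2 marks the proximal epithelium that forms the conducting airways, while Sox9, Id2 and Etv5 are known from the distal tips, where mesenchymal FGF10 signals through FGFR2. Gata6, Cebpa and Klf5 are known from alveolar differentiation and surfactant production before birth, and Grhl2 and Elf3 from epithelial junctions and barrier.

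The 2 libraries held 42189536 counts in pup 1 and 37026165 counts in pup 3 over all genes. A gene with no count could have been present at up to 0.0711 CPM (counts scaled to the library total) in pup 1 and 0.0810 CPM in pup 3, taking 3 counts as the limit, which covers counting error only. Markers fitted the label of lung: the summed level of 5 general epithelial markers was 1167 TPM (transcript abundance scaled for length and library total) in pup 1 and 1307 TPM in pup 3, with Krt19 the highest, and that of 5 alveolar type 2 markers was 79567 and 71050 TPM, led by Sftpc. Alveolar type 1 markers (Ager highest) summed to 4392 and 4755 TPM, airway secretory markers (Scgb1a1) to 32645 and 34241 TPM and ciliated markers (Tppp3) to 778 and 775 TPM. Non-epithelial cells were present as well, with endothelial markers (Cldn5) at 654 and 682 TPM, mesenchymal markers (Tcf21) at 1146 and 1089 TPM, heart markers (Myl7) at 393 and 496 TPM, red cell markers (Alas2) at 139 and 170 TPM and myeloid markers (Csf1r) at 23.4 and 21.8 TPM. Markers of basal and stratified epithelium (Krt4) summed to 3.33 and 3.0 TPM and those of neuroendocrine cells (Calca) to 9.98 and 11.1 TPM. Those of gut epithelium (Lgals4) summed to 14.4 and 14.3 TPM and of liver (Apoa1) to 6.60 and 4.42 TPM. Low sums were found for markers of thyroid (Tg highest, 0.870 and 1.16 TPM in sum), the other tissue known for Nkx2-1, of cartilage (Col9a1, 0.470 TPM in both pups) and of adipocytes (Cidec, 1.51 and 1.33 TPM). In whole tissue, fewer cells of a type and less RNA per cell cannot be told apart.

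All 10 factors were detected, defined as at least 1 TPM in both pups; 33.1% of all mouse genes and 60.3% of protein-coding genes met that definition. TPM is corrected for transcript length, so it was used to compare genes, as far as the deposited transcript models hold. Their levels spread over a 164-fold range between the highest, Id2, and the lowest, Sox2. The median of their mean TPM was 29.2, beside 15.7 over the 12942 detected protein-coding genes, and 7 of the 10 lay above that second value. Because the factors were chosen with earlier results of these data known, these counts are descriptive only. Id2 alone made up 58.0% of the summed level of the 10 genes in pup 1 (of 640 TPM) and 60% in pup 3 (of 674 TPM). The order from high to low was Id2, Etv5, Nkx2-1, Klf5, Elf3, Cebpa, Gata6, Sox9, Grhl2, Sox2. Each neighbour in that order kept its place in both pups except Sox9 and Grhl2, whose mean levels of 7.75 and 7.17 TPM did not differ beyond their spread.

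**Figure D1:**
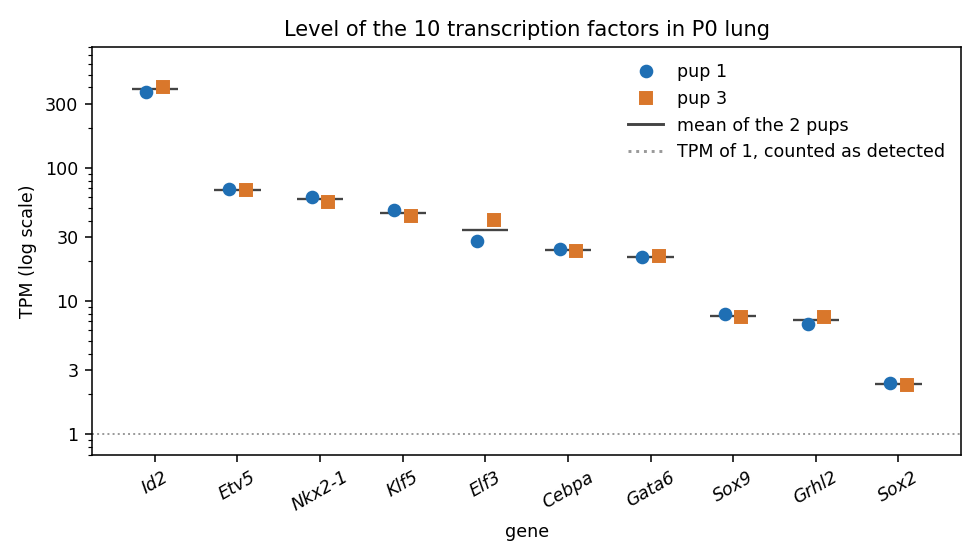
Level of each of the 10 factors in TPM (log axis), with a circle for pup 1, a square for pup 3 and a line at their mean. Id2 stands alone above 300 TPM, Etv5 to Gata6 fall between about 20 and 70 TPM, and Sox9, Grhl2 and Sox2 lie below 10 TPM; Elf3 has the widest gap between the pups.

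The 2 pups were compared with counts scaled by the trimmed mean of M values. A gene was taken to differ where it had at least 50 counts over both pups, the ratio was at least 2-fold and the exact 95% counting interval of the ratio left out 1. By this rule 1.4% of the 15790 genes with enough counts differed, and none of the 10 factors did. This is the 2-fold rule referred to for each family, and its outcome for 2 pups says nothing on why a gene differs.

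Nkx2-1 (ENSMUSG00000001496.11, chr12:56531958-56536908, minus strand, mm10) encodes the homeodomain factor that defines the lung field and drives surfactant and secretoglobin genes. Its level was 60.5 TPM in pup 1 and 55.5 TPM in pup 3 (58.0 ± 3.56, SD, n = 2), from 4254 and 3319 counts. The pups lay close together, and the gene ranked above most detected protein-coding genes. Within a list of 12 NK2 and related NKX homeobox genes it was the only detected member and carried 98.3 ± 0.881% of the list's summed TPM. The other 11 were all under a mean of 1 TPM. The nearest, Nkx2-5, which is known as a heart factor, stood at 0.300 TPM in pup 1 (14 counts) and 1.07 TPM in pup 3 (42 counts). Nkx2-5 was also higher in pup 3 by the 2-fold rule, and 3 of the 4 heart markers (Myl7, Tnnt2 and Myh6) had ratios on that side, while Nppa, at 2.47 TPM in pup 1 and 1.38 TPM in pup 3, lay on the other. Their part in this difference was not tested.

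Genes held to be NKX2-1 targets were all detected, 8 of 8. Sftpc, encoding surfactant protein C, was at 77317 TPM in pup 1 and 68981 TPM in pup 3. Scgb1a1, the club cell secretoglobin, was at 23050 and 23372 TPM, and Scgb3a2 at 5022 and 6245 TPM. The level of the factor thus lay far below those of the secreted products. Of the same 8 genes, Lamp3 (128 and 167 TPM) was less far above it, and Abca3 (56.7 and 61.0 TPM) was at a similar level. None of the 8 passed the 2-fold rule between the pups, and their median log2 ratio of pup 1 over pup 3 was 0.10.

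Nkx2-1 has 2 transcript models in the tables. Nkx2-1-202, the shorter at 2242 bases, took 93.6% of the gene's TPM in pup 1 and 93.5% in pup 3, and Nkx2-1-201, of 2809 bases, took 6.41% and 6.46%. The shares hardly moved between the pups. In the GENCODE M21 annotation both models hold the same 1119 coding bases, including the stop codon, and encode 372 amino acids, so the 2 differ outside the coding part. They begin 1802 bases apart, and the start given for the gene by RefSeq is that of the minor model, Nkx2-1-201.

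Promoter windows were taken from RefSeq (build GRCm38.p6, the same coordinates as mm10), which gave 7 windows for 6 of the 10 genes: Nkx2-1, Sox2, Id2, Cebpa, Elf3 and, with 2 starts, Etv5. A set of 3 is printed here, 5′ to 3′ on the gene's strand, from 250 bases before the start to 30 bases after it: the window of Nkx2-1, because the data put most of its transcripts on the other start, and those of Id2 and Sox2, the highest and the lowest of the 10 genes. Capitals mark GGGCGG, a box known to be bound by SP and KLF factors, or its complement CCGCCC.
Id2 (chr12:25096063-25096342, minus strand): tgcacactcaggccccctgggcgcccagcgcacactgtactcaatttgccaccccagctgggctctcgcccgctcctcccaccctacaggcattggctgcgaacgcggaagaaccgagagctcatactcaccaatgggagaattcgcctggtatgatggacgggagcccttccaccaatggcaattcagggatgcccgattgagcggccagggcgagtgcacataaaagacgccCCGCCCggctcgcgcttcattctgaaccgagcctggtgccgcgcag
Nkx2-1 (chr12:56536879-56537158, minus strand): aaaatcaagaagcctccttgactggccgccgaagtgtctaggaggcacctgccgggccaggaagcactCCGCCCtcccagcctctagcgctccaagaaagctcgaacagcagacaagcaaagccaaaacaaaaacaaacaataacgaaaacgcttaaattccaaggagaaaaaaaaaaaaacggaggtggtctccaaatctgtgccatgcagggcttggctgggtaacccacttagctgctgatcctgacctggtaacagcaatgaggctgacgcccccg
Sox2 (chr3:34649745-34650024, plus strand): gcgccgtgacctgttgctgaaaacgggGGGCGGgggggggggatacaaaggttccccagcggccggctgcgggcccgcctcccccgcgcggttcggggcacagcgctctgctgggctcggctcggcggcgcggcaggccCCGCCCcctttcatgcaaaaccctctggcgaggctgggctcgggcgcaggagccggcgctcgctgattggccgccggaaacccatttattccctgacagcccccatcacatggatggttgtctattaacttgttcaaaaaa

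The RefSeq start of Sox2, at 34649995, lies before the start of its M21 model at 34650405, so the printed window ends before that model begins. For Id2 the RefSeq start, 25096092, is that of Id2-201. The windows of the highest and the lowest gene were alike in composition. Id2 had 63.3% G or C and Sox2 66.3%, above 78.4% and 84.4% of the 32851 promoter windows in the table, and Nkx2-1, at 53.7%, lay near the median of 52.7%. Over the 7 windows the median was 63.3%. The ratio of observed to expected CpG had a median of 0.727 in the 7 windows and 0.384 in all windows, with the highest value at the outer Etv5 start (0.938) and the lowest at Elf3 (0.460). Over the full windows, which run to 50 bases after the start, the GGGCGG box was in 4 of 7 (Sox2, Id2, Nkx2-1 and 1 of the 2 Etv5 starts), beside 35.7% of all windows. TATAAA, read on the gene's strand, was in the Cebpa window and in 8.32% of all windows. Of the other motifs searched, all on both strands, AACAAT of SOX factors was found in Nkx2-1 (10.7% of all windows) and CCGGAA of ETS factors in Sox2 (14.9%). No window held CTCAAG of NK2 factors (15.9% of all windows), AGATAA of GATA factors (11.2%), TTGCNNCAA of C/EBP factors (2.08%) or AACCGGTT of Grainyhead factors (0.146%). No matches of different motifs overlapped. A match shows only that these letters are present.

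Gata6 (ENSMUSG00000005836.8, chr18:11052064-11085635, plus strand) encodes a zinc finger factor of foregut endoderm that is needed for alveolar maturation and is also expressed in smooth muscle. Its level was 21.4 TPM in pup 1 and 21.6 TPM in pup 3 (21.5 ± 0.184, n = 2), from 2134 and 1838 counts, the smallest relative spread of the 10. Among the 6 GATA genes it ranked 2nd and took 28.3 ± 1.45% of their summed TPM. Gata2, known from blood and endothelial cells, was higher at 42.9 and 37.1 TPM. Gata5, known from endoderm and heart, followed at 9.18 and 10.1 TPM. Gata3 (2.41 and 2.15 TPM) and Gata1 (1.74 and 1.64 TPM), factors of lymphoid and red cells, were low. Gata4, the close relative that acts with Gata6 in the heart, fell on either side of the detection level at 0.720 and 1.13 TPM and was the only one of the 6 not counted as detected. The FOG cofactors that bind GATA factors were low, Zfpm2 at 1.79 and 2.24 TPM and Zfpm1 at 1.49 and 1.37 TPM. None of the 6 GATA genes passed the 2-fold rule between the pups.

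Sox2 and Sox9 are SOX factors that divide the branching epithelium into a proximal and a distal part. Sox2 (ENSMUSG00000074637.6, chr3:34650405-34652461, plus strand), the proximal factor that is later retained in airway cells, was at 2.42 TPM in pup 1 and 2.32 TPM in pup 3 (2.37 ± 0.0707, n = 2), from 184 and 150 counts. It was the lowest of the 10, above only 8.47% of the detected protein-coding genes. Sox9 (ENSMUSG00000000567.5, chr11:112782224-112787760, plus strand), the factor of distal tips and also of cartilage, was at 7.95 and 7.55 TPM (7.75 ± 0.283, n = 2), from 1035 and 837 counts.

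Sox9 thus stood above Sox2 in each pup, by 3.29-fold in pup 1 (95% counting interval 2.81 to 3.87) and by 3.25-fold in pup 3 (2.74 to 3.91). The intervals overlap almost fully, so the ratio of the pair was not distinguishable between the pups. The level of Sox2 rests on a model of 2457 bases, where M21 gives 2057 bases, and the intervals do not cover this. Nor do they cover any reads of Sox2ot, a longer transcript on the same strand that spans Sox2 and was not measured. The defining cartilage genes Col2a1 (0.150 and 0.0200 TPM) and Acan (0.0700 and 0.0100 TPM) were near 0. Schwann cell Sox10, at 0.0900 and 0.280 TPM, was also low.

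By mean TPM, Sox9 ranked 7th and Sox2 10th of the 19 SOX genes listed, with 2.37 ± 0.262% and 0.724 ± 0.0752% of the summed TPM. The 2 highest were the endothelial factors Sox18 (118 TPM in pup 1 and 143 TPM in pup 3) and Sox17 (84.5 and 81.4 TPM). Sox4, widely expressed in developing tissue, followed at 44.5 and 54.6 TPM. Sox7 (20.3 and 21.4 TPM), also endothelial, Sox13 (13 and 12.2 TPM) and Sox11 (8.09 and 9.97 TPM) completed the genes above Sox9. Sox5 (7.29 and 7.59 TPM) and Sox12 (3.10 and 3.42 TPM) had means between those of Sox9 and Sox2, although Sox5 was just above Sox9 in pup 3, and Sox6 (1.43 and 1.85 TPM) lay below them. The remaining 8 SOX genes were under 1 TPM in both pups, Sox21 among them at 0.130 and 0.100 TPM.

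Etv5 (ENSMUSG00000013089.11, chr16:22381309-22439719, minus strand) encodes an ETS factor of the PEA3 group that is switched on by FGF receptor signals and is also known in alveolar type 2 cells. It was at 69.1 TPM in pup 1 and 67.9 TPM in pup 3 (68.5 ± 0.870, n = 2), from 8640 and 7198 counts. The pups were nearly equal. It was the highest of the 6 ETV genes listed and carried 64.9 ± 1.3% of their summed TPM. The next, Etv1 of the same PEA3 group, was at 17.9 and 18 TPM, so that Etv5 stood 3.87-fold above it in pup 1 and 3.77-fold in pup 3. Etv4, the third PEA3 gene and a partner of Etv5 at the distal tip, was at 1.08 and 1.05 TPM. Etv3 (12.1 and 13.8 TPM) and Etv6 (4.84 and 5.32 TPM), which belong to other ETS groups, lay in between, and Etv2, a factor of early blood vessel precursors, had no count in either pup. Of 5 transcript models, Etv5-201 took 99.4% and 99.6% of the gene's TPM.

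The ligand, receptor and feedback genes around Etv5 were all detected, 10 of 10. Fgfr2, the epithelial receptor, was highest at 108 TPM in pup 1 and 98.6 TPM in pup 3. Spry2 and Dusp6, feedback inhibitors of the receptor and of ERK, were at 78.3 and 88.4 TPM and at 42.8 and 53.8 TPM. In 8 of the 10 the log2 ratio of pup 1 over pup 3 was below 0, with a median of −0.15, beside 0.01 over all tested genes. None passed the 2-fold rule. Etv5 itself had a log2 ratio of 0.12. Spike-in scaling moved the median of all tested genes to 0.15, so the side of 0 on which such small ratios fall depends on the scaling.

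Id2 (ENSMUSG00000020644.8, chr12:25093799-25097140, minus strand) encodes a helix-loop-helix protein without a DNA-binding region, which holds E proteins away from DNA and marks distal tip progenitors, although many other cell types express it. It was at 371 TPM in pup 1 and 404 TPM in pup 3 (388 ± 23.2, n = 2), from 14033 and 12993 counts. It ranked 306th of the 12942 detected protein-coding genes. Its relative Id3 was at 420 and 380 TPM, so that Id3 was higher in pup 1 and Id2 in pup 3, and their order did not hold beyond the spread. Id1 was at 189 and 193 TPM and Id4 at 5.91 and 8.56 TPM. Id2 made up 39.3 ± 2.34% of the family's summed TPM.

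All 3 E protein genes that ID proteins bind were detected. Tcf4 was at 74.2 and 84.4 TPM, Tcf3 at 30.9 and 32.2 TPM and Tcf12 at 29.6 and 27.9 TPM. Their sum, 135 TPM in pup 1 and 145 TPM in pup 3, was below the level of Id2 alone and far below the 986 TPM that the 4 ID genes summed to in each pup.

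Genes known from distal tip progenitors were detected in 9 of 11 cases. Ccnd1, a cell cycle cyclin, was at 58.8 and 65.2 TPM, the chromatin protein gene Hmga1 at 48.3 and 37.6 TPM, and the tip ligand Bmp4 at 25.5 and 34.4 TPM. Lin28a (0.0100 and 0.170 TPM) and Lin28b (0.0200 and 0.0300 TPM), RNA-binding proteins of early progenitors, were under 1 TPM in both pups. Factors known from distal tips thus differed widely in level in whole lung, from Id2 and Etv5 through Sox9 down to Etv4. Their levels in tip cells were not measured. None of the 9 passed the 2-fold rule between the pups; Lin28a and Lin28b had too few counts for it.

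Cebpa (ENSMUSG00000034957.9, chr7:35119293-35121928, plus strand) encodes a leucine zipper factor of alveolar maturation that is also strong in liver, fat and myeloid cells. It was at 24.7 TPM in pup 1 and 23.7 TPM in pup 3 (24.2 ± 0.665, n = 2), from 2017 and 1651 counts. Among the 6 genes listed it ranked 4th, with 8.71 ± 0.550% of their summed TPM. Cebpb and Cebpd, relatives that respond to stress and glucocorticoid signals, were higher, at 94.9 and 108 TPM and at 101 and 100 TPM. Cebpg, a partner that lacks an activation region, was at 39.2 and 41.2 TPM, and Cebpz, a distant nucleolar protein, at 10.4 and 11.4 TPM. Cebpe, known from granulocytes, was under 1 TPM (0.520 and 0.610). Of the other tissues known for it, the myeloid marker list, given above, had the highest sum, with Csf1r at 19.1 and 17.7 TPM, Csf3r at 2.97 and 3.39 TPM and Elane at 0.870 and 0.0900 TPM. The liver gene Alb was at 2.77 and 1.87 TPM and the adipocyte gene Adipoq at 0.0700 and 0.0300 TPM. The part of these cells in the level of Cebpa was not tested.

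Klf5 (ENSMUSG00000005148.7, chr14:99298691-99315036, plus strand) encodes a zinc finger factor of epithelium that is known from the maturing saccules. It was at 47.7 TPM in pup 1 and 43.5 TPM in pup 3 (45.6 ± 2.97, n = 2), from 2496 and 1937 counts. Of 17 KLF genes it ranked 6th and took 8.54 ± 0.518% of the summed TPM. The level rests on a transcript model of 1721 bases in the deposited tables, where the later M21 annotation gives 3352 bases, and the part added since is not in the deposited model.

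The 5 KLF genes above it were Klf6 (77.3 and 84.3 TPM), Klf13 (77.7 and 68.6 TPM), Klf2 (57.4 and 65.5 TPM), known from endothelium, Klf3 (51.6 and 56.1 TPM) and Klf10 (43.5 and 54.5 TPM). Below it came Klf7 (35.2 and 41.6 TPM), Klf4 (34.4 and 38.3 TPM), Klf9 (44.2 and 27.7 TPM), Klf15 (35.4 and 17.1 TPM), Klf11 (20.0 and 23.6 TPM), Klf16 (6.31 and 6.24 TPM), Klf12 (2.03 and 2.30 TPM) and Klf14 (1.18 and 1.19 TPM). The other 3 had a mean under 1 TPM. In pup 3 Klf10 exceeded Klf5, while in pup 1 Klf5 exceeded Klf10, so that pair had no stable order. Klf15, which glucocorticoids induce, was the only KLF gene that passed the 2-fold rule, with a log2 ratio of 1.14 toward pup 1. Klf9, another glucocorticoid-induced gene, had a log2 ratio of 0.76, below that rule. Cebpb and Cebpd, described above as responding to glucocorticoid signals, were at −0.11 and 0.11. A part of glucocorticoids in these ratios was not tested.

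**Figure D2:**
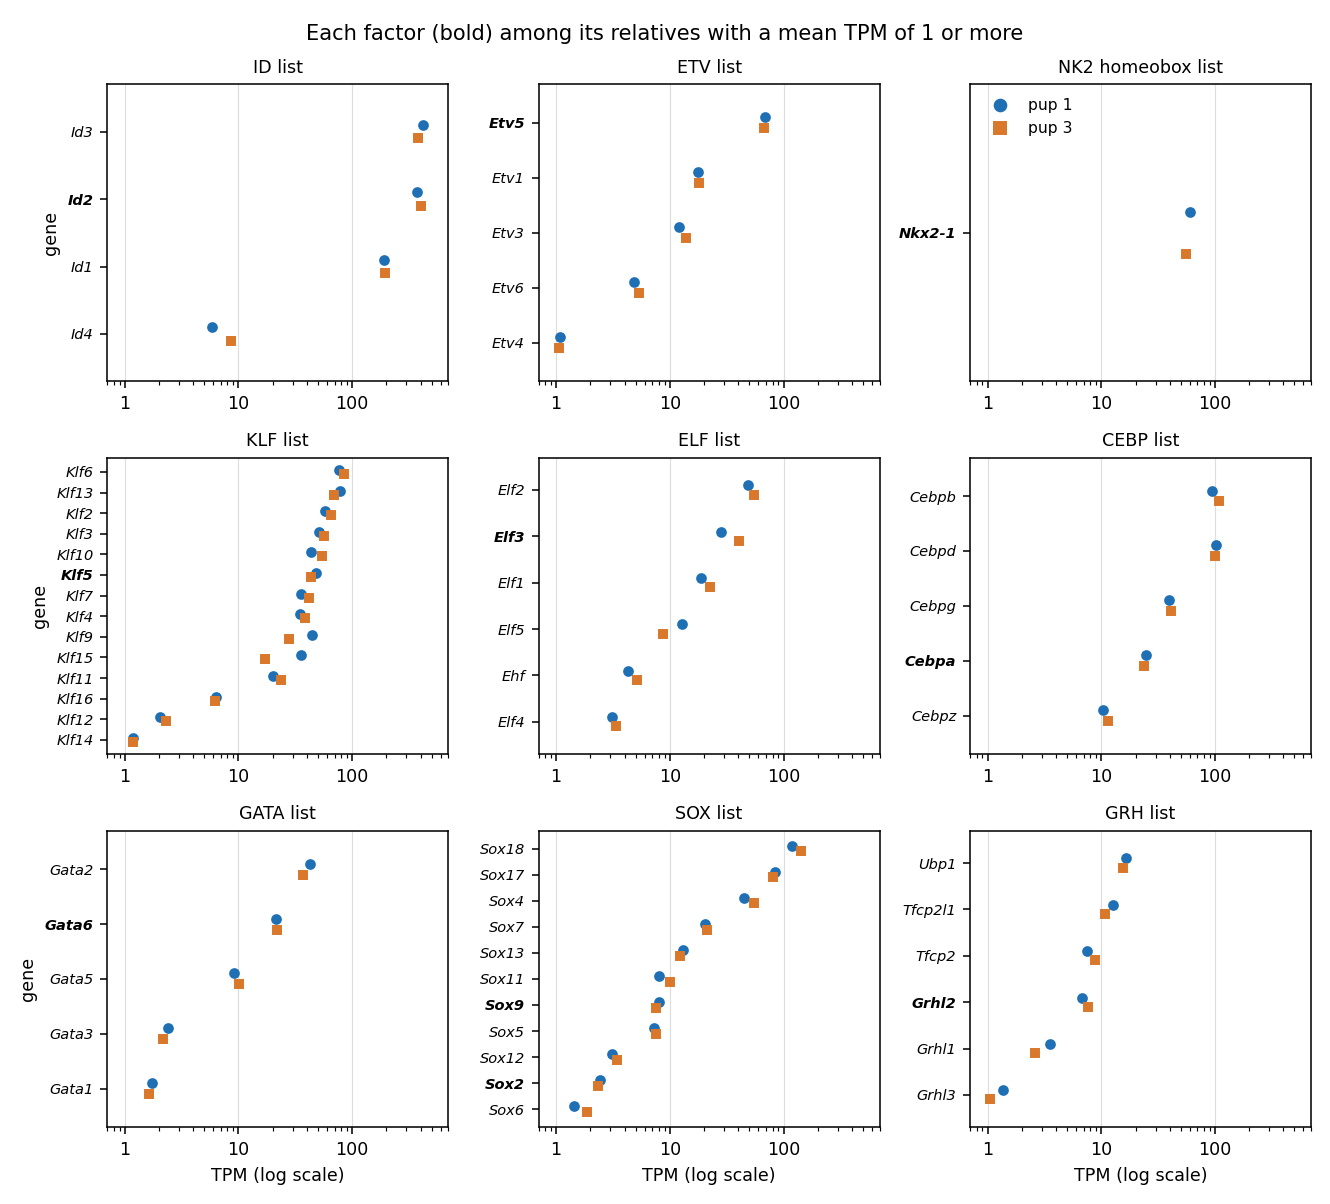
Levels in TPM (log axes) of each factor, in bold, and of its relatives with a mean of at least 1 TPM, with circles for pup 1 and squares for pup 3. Etv5 and Nkx2-1 top their lists, Nkx2-1 with no relative at that level, whereas Sox9 and Sox2 lie below 6 other SOX genes and Grhl2 below Ubp1, Tfcp2l1 and Tfcp2.

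Grhl2 (ENSMUSG00000022286.11, chr15:37233036-37363569, plus strand) encodes a Grainyhead factor that maintains E-cadherin, claudins and tight junctions in epithelium. It was at 6.75 TPM in pup 1 and 7.59 TPM in pup 3 (7.17 ± 0.594, n = 2), from 853 and 847 counts. It was the highest of the 3 Grhl genes, with Grhl1 at 3.53 and 2.62 TPM and Grhl3 at 1.36 and 1.06 TPM. In the wider list of 6 it ranked 4th, behind the CP2 factors Ubp1 (16.5 and 15.6 TPM), Tfcp2l1 (12.8 and 10.7 TPM) and Tfcp2 (7.45 and 8.80 TPM).

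Genes held to be targets of GRHL2 or part of epithelial junctions were detected in 7 of 7 cases. Epcam, an epithelial adhesion molecule, was at 117 TPM in pup 1 and 113 TPM in pup 3. Cdh1, which encodes E-cadherin, was at 77.6 and 93.6 TPM and the trafficking gene Rab25 at 54.0 and 54.7 TPM. The lowest of the 7, Ovol2, a zinc finger factor of epithelium, was at 3.51 and 3.47 TPM, below Grhl2. None of the 7 passed the 2-fold rule.

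Elf3 (ENSMUSG00000003051.9, chr1:135253575-135258568, minus strand) encodes an epithelium-specific ETS factor of differentiated and stressed epithelium. It was at 28.1 TPM in pup 1 and 40.3 TPM in pup 3 (34.2 ± 8.66, n = 2), from 1677 and 2089 counts, the largest relative spread of the 10. Among the 6 ELF and EHF genes it ranked 2nd with 27.1 ± 3.94% of the summed TPM, behind the widely expressed Elf2 (48.5 and 54.6 TPM). Elf1, known from blood and endothelial cells, was at 18.8 and 22.7 TPM and Elf4 at 3.10 and 3.34 TPM. The other 2 epithelial members differed in opposite directions: Elf5, a distal lung and mammary factor, was at 12.7 and 8.77 TPM, whereas Ehf was at 4.28 and 5.09 TPM. None of the 6 passed the 2-fold rule.

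Elf3 was the 1 gene of the 10 with a pair of protein-coding models at similar levels. Elf3-202 took 57.1% of its TPM in pup 1 and 56.6% in pup 3, and Elf3-201 took 40.7% and 43.4%. The split was alike in both pups although the gene's level was not. Elf3-201 encodes 391 amino acids and Elf3-202 encodes 371, because 60 coding bases at the 5′ end of exon 3 (chr1:135257227-135257286, minus strand; exon 135257005-135257286) are in the first model only. The stretch is printed here in capitals with 30 coding bases on each side, from the GENCODE M21 transcript on mm10, since it is what separates the proteins of the 2 models.
Elf3-201, coding bases 161 to 220 in capitals: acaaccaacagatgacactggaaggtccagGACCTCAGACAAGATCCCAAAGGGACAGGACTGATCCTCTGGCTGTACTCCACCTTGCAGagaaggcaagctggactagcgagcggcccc

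The 5 general epithelial markers lay on both sides of 0. On the log2 scale of pup 1 over pup 3, 3 lay on the side of Elf3: Krt19 (−0.25), Cdh1 (−0.18) and Krt8 (−0.07). Epcam (0.15) and Krt18 (0.16) lay on the other side. Their part in the Elf3 difference was not tested.

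Grhl2 had the most even split between a coding and a noncoding model. Grhl2-201, encoding 625 amino acids, took 45.1% of the gene's TPM in pup 1 and 50% in pup 3, and Grhl2-205, a processed transcript of 3617 bases with no coding part, took 46.1% and 42.8%. Which of them led therefore changed between the pups, although by share of the gene's counts Grhl2-201 led in both, with 55.8% and 59.6%. Protein-coding models together held 53.9% and 57.3% of the TPM of Grhl2. Over the 9443 detected protein-coding genes with several models the median of that share was 93.5%, and 15.3% of them had a share under 60%.

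The remaining 6 factors each have 1 model in the tables, as do 27.0% of the 12942 detected protein-coding genes. Counting these, the leading model was the same in both pups for 9 of the 10 factors and protein-coding in both pups for 9, with Grhl2 the exception each time. Among the genes with several models, 91.8% had the same leading model in both pups and 88.7% a protein-coding one. For 4 of the 6 single models, those of Cebpa, Gata6, Klf5 and Sox2, the length in the deposited tables differs from that in M21. Besides Klf5, the Sox2 model is the one that changed most, from 2457 bases in the tables to 2057.

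**Figure D3:**
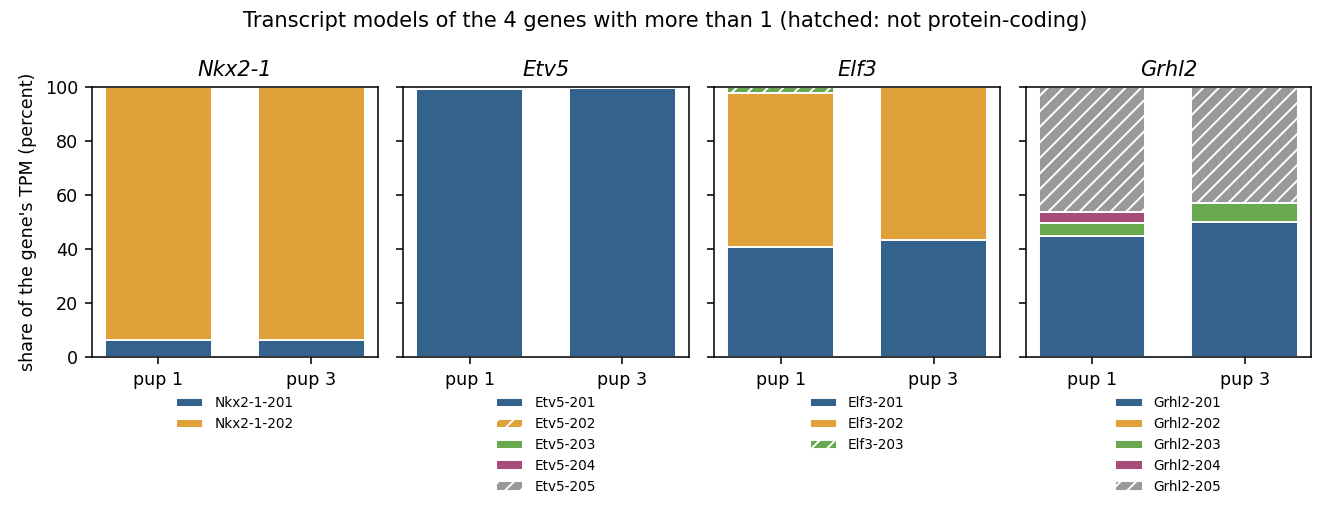
Share of each gene's TPM (percent) by transcript model in pup 1 and pup 3, for the 4 factors with more than 1 model; hatched parts are models that are not protein-coding. Nkx2-1 and Etv5 are taken up almost wholly by 1 model, Elf3 by a pair of coding models, and Grhl2 by 1 coding and 1 noncoding model of similar share.

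Several of the factors have a noncoding neighbour that overlaps them, and how the counting used strand is not given in the sources used here, so reads of such pairs may not be fully separable. Within 2000 bases of the 10 genes lay 10 other annotated genes, 8 of them in the tables, beside 7 of the factors. At the start of Grhl2, the antisense gene Gm16136 (chr15:37231793-37233309) shared 274 bases with it and stood at 26.3 TPM in pup 1 and 25.9 TPM in pup 3, 3.90-fold and 3.41-fold the level of Grhl2 itself. Gm26973 (chr12:56535343-56607476), antisense to Nkx2-1 over 1566 bases, was at 10.5 and 12.0 TPM, from only 110 and 116 counts. The major model Nkx2-1-202 (chr12:56531958-56535106) lies outside that overlap, which falls in the span of the minor model Nkx2-1-201 only. At Gata6, the oppositely oriented 1010001N08Rik (chr18:10987944-11052567) was at 2.50 TPM in pup 1 and 5.12 TPM in pup 3, from 106 and 152 counts. After scaling, this was 1.59-fold higher in pup 3 (95% counting interval 1.23 to 2.06), while Gata6 did not differ beyond counting error. The antisense Gm26642 at Elf3 (0.0900 and 0.160 TPM) and Gm16137 at Grhl2 (0.380 and 0.640 TPM) were under 1 TPM, as was BC006965 near Sox9 (0.0800 and 0.0500 TPM). The long transcript Sox2ot spans all 2057 bases of the M21 model of Sox2 on the same strand, and was not found among the mouse genes measured. Any reads of Sox2ot over Sox2 could therefore not be told apart from those of Sox2.

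Other regulators that act with these factors were mostly present, 21 of 23 detected. Foxp1, a repressor of airway and alveolar genes, was at 105 and 98.9 TPM, the glucocorticoid receptor gene Nr3c1 at 84.5 and 101 TPM and Nfib, a factor of lung maturation, at 45.8 and 56.3 TPM. Trp63, the factor of basal cells in the conducting airways, was under 1 TPM, at 0.150 and 0.110. None of the 22 with enough counts passed the 2-fold rule, and 11 of them had a log2 ratio above 0 and 11 below it.

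Between the pups the 10 factors differed little. The interval alone left out 1 for 7 of the 10: Klf5, Nkx2-1, Sox9, Cebpa and Etv5 toward pup 1, and Id2 and Elf3 toward pup 3. Among all tested genes 24.6% had such an interval toward pup 1 and 21.6% toward pup 3. An interval of this kind covers counting error only, and for well-counted genes even small ratios leave out 1.

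The log2 ratios of the 10 ran from −0.46 for Elf3 to 0.22 for Klf5, with a median of 0.13, beside 0.01 over all tested genes. The middle 68% of all tested genes lay between −0.23 and 0.21. Nkx2-1 (0.21), Sox9 (0.16), Sox2 (0.15), Cebpa (0.14), Etv5 (0.12), Gata6 (0.07), Id2 (−0.04) and Grhl2 (−0.14) fell inside that range, and Klf5 lay just above it. Elf3 was 1.38-fold higher in pup 3 (1.29 to 1.47), and 90.7% of tested genes had a smaller absolute log2 ratio. The direction for the small ratios depends on the scaling: 7 of the 10 were above 0 as given, 9 with spike-in scaling, which moved the median of all genes to 0.15, and 6 on deposited TPM, which moved it to −0.06. Elf3 was below 0 under each of these. The deposited TPM placed Gata6 slightly toward pup 3 (−0.02), and spike-in scaling placed Id2 (0.11) and Grhl2 (0.01) toward pup 1.

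**Figure D4:**
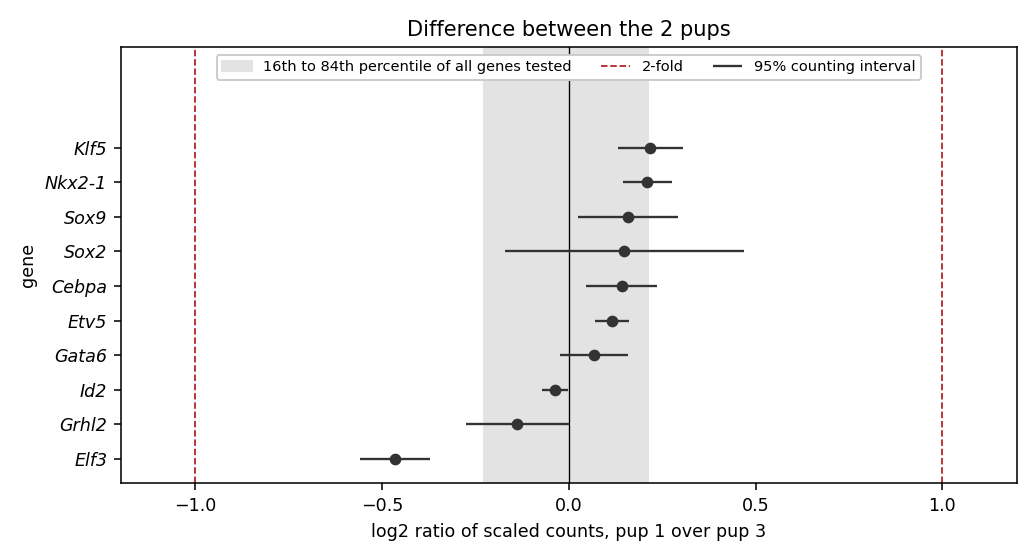
Log2 ratio of scaled counts of pup 1 over pup 3 for the 10 factors, with 95% counting intervals, the band that holds the middle 68% of all tested genes in grey and dashed lines at 2-fold. No factor comes near a 2-fold difference, 8 lie inside the band, Klf5 lies just above it, and Elf3 lies below it at −0.46.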

How the data were processed

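Total RNA-seq tables of 2 newborn lung libraries were used, 1 per pup. Per the deposited text files, the authors derived expected counts, TPM and FPKM per gene and transcript from alignments to assembly mm10 with GENCODE annotation M4; which aligner and counter they ran is not given in the sources used here. Percent shares of a gene's TPM per transcript model (IsoPct), posterior mean counts, TPM and FPKM and posterior SDs are deposited in the same tables. Symbols, positions and models came from GENCODE M21 and promoters from RefSeq. Spike-ins (317 counts in pup 1 and 316 in pup 3) and 26248 numbered rows that name no gene (32 and 45 counts) were left out of library sizes. Expected counts were compared between pups on TMM sizes (edgeR 4.0.16, ratio of sizes 1.11) with a prior of 0.5 counts and exact conditional binomial intervals in scipy 1.17.1. The rule was tested on simulated counts that held counting error only, so that test says nothing on other variation in these data. Intervals cover counting error only, because counts were treated as independent draws with no variation between replicates. Reads that carry no molecular identifier may stem from 1 molecule, which would make the intervals too narrow. With 2 libraries of 1 group no model was fitted and no p-value is given, since the labels do not show that the pups are separate donors. Alternatives were other sizes (DESeq2 1.42.0, total counts, spike-ins, TPM + 1), count minimums, a 1.5-fold threshold, posterior means and leaving out each pup. The members and lists were chosen with earlier results of these data known. All 10 factors are named, with relatives at a mean of 1 TPM or more and, of other lists, the 3 highest genes, those under 1 TPM in both pups and those that differed; genes such as Sox10, Sox21, Elane, Csf3r, Nppa, Ovol2 and Zfpm1 were added after their values were seen. Protein sequences were not analysed here. Some genes and marker lists that were examined are not reported here.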

Additional observations from a re-analysis of the deposited data

How the results depend on the processing

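None of the 10 factors differed between the pups under any alternative run, and all 10 stayed detected except at a threshold of 5 TPM, which 9 met and Sox2 did not. The number of all genes that differed, 221, became 85 on deposited TPM + 1, 590 with a minimum of 10 counts, 701 with no minimum and 799 at 1.5-fold. Spike-in scaling left it at 243 but moved the split from 104 higher in pup 1 and 117 in pup 3 to 161 and 82; it rests on only 317 and 316 spike-in counts. The log2 ratio of Id2 over Id3 was −0.04, ranged from −0.18 to 0.088 when either replicate was left out, and turned above 0 without replicate 1 (pup 1), which raised the number of factors that top their family from 2 to 3. Of the values for single genes under other settings, 136 stayed within the limit set for them and 33 moved beyond it. The remaining 1, the ratio of Id2 over Id3, reversed. With 2 pups, leaving either out always shifts a mean by less than its SD, so those settings say nothing on stability. Nor could the share of a gene with 1 model move. Leaving mitochondrial genes, globins and spike-ins out of the TPM rescales all remaining genes, which raised each factor, for example Nkx2-1 to 63.9. The cause of the other shifts was not tested. No paired analysis was possible because there is only 1 group. Sox2, with 184 and 150 counts, has the least precise ratio.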
